A study of Mus musculus with 20 samples.

Results

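The 8 genes described here encode proteins that write, erase or read DNA methylation: the methyltransferases Dnmt1 and Dnmt3a, the dioxygenases Tet1, Tet2 and Tet3, and the methyl-CpG-binding domain proteins Mbd1, Mbd2 and Mbd3. They were listed by name, with earlier results of these data known, and all 8 were found among the 19463 genes of the table. Whole brains of C57BL/6J males gave the RNA, which was sequenced in 4 groups of 5 mice, WT and Katnal2-KO, each at P21 (3 weeks) and P70 (10 weeks). The KO mice descend from the EUCOMM allele Katnal2tm1a(EUCOMM)Wtsi, bred to Protamine-Flp mice to give a floxed allele and then exposed as embryos to HTNC, a Cre recombinase that enters cells. The deletion is therefore not limited to a chosen cell type, and the line had been crossed to C57BL/6J for more than 5 generations. WT mice of the same strain, sex and age were the controls at each age. Values are normalized counts, that is, estimated reads per gene divided by the authors' DESeq2 factors.

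DNA methylation in mammals is placed mostly on the cytosine of CpG dinucleotides. Dnmt1 copies the pattern onto the new strand after replication, whereas Dnmt3a methylates sites without a template and in neurons also places methylation outside CpG, much of it after birth. The Tet enzymes oxidize 5-methylcytosine to 5-hydroxymethylcytosine, which is abundant in brain, and to further products that Tdg and base excision repair can replace with unmodified cytosine. Mbd1 and Mbd2 bind methylated CpG, and Mbd2 and Mbd3 are alternative subunits of the nucleosome remodelling and deacetylase complex (NuRD), Mbd3 with little affinity for methylated DNA in mammals. DNA methylation itself was not measured in these samples, so all values below are levels of RNA.

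Promoter sequence is shown for the 2 members that passed the test between ages, Dnmt3a and Mbd3, and for Dnmt1, the other methyltransferase, as the windows differ widely in CpG. Each window runs 5′ to 3′ on the gene's own strand from 250 bases before to 50 bases after a RefSeq start in GRCm38.p6, and capitals mark every CG dinucleotide, the letters on which these enzymes act. The windows lie at chr12:3806730-3807029 on the plus strand (Dnmt3a), chr9:20952930-20953229 on the minus strand (Dnmt1) and chr10:80399482-80399781 on the minus strand (Mbd3). Dnmt3a and Dnmt1 have 3 windows each, of which the nearest to the start of the principal transcript is shown. For Dnmt3a that start, at 3807030, lies 50 bases from the RefSeq start and just past the end of the window.
Dnmt3a: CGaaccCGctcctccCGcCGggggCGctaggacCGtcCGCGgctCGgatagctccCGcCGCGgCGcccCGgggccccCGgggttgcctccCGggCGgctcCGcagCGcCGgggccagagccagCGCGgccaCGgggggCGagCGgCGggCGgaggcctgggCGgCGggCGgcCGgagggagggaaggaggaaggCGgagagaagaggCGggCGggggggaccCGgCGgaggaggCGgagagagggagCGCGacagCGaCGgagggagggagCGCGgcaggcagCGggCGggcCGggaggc
Dnmt1: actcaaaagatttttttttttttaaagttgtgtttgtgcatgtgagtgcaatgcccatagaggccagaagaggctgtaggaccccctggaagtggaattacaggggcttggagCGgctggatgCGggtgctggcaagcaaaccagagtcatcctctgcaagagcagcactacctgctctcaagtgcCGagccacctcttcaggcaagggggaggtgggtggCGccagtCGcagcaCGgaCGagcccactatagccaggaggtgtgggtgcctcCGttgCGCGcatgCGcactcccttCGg
Mbd3: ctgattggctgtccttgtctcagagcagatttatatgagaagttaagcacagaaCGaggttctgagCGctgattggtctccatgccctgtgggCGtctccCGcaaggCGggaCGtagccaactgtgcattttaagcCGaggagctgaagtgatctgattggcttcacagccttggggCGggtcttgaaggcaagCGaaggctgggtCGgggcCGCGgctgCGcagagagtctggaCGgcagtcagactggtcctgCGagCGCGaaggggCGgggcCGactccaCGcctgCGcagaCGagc
The Dnmt3a window holds 46 CG dinucleotides and has a GC content of 82.3%, and 1.6% of 32851 RefSeq promoter windows of 300 bases hold as many or more. The Mbd3 window holds 22 (60.7% GC), a number reached by 23.1% of windows, and the Dnmt1 window 12 (57.0% GC), reached by 39.6%. The median window holds 7. GGGCGG, searched on both strands, occurs 6 times in the Dnmt3a window, 2 times in that of Mbd3 and not in that of Dnmt1, and 35.7% of all windows hold it. CCAAT, on either strand, occurs 3 times in the Mbd3 window (37.4% of all windows hold it), and TATAAA once there (13.6%), whereas neither stands in the other windows shown. Promoter windows were found for 6 members, of which those of Tet1 and Tet3 began 11794 and 14714 bases from the start of the principal transcript and were not printed. The Tet2 window, at the principal start, holds 57 CG and was not printed either, as Tet2 did not pass the test as fitted. These matches describe letters and not binding sites.

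The normalized counts of a mouse summed to 27310523 to 28423042, and spacing of the low values put sequencing depth at 25700000 to 35400000 reads at P21 and 23500000 to 24500000 at P70, with a clear spacing in 8 of 10 mice at each age. The mice without one were KO replicate 1 and WT replicate 4 at P21 and replicate 5 of both genotypes at P70. Their unclear peaks put P70 replicate 5 at 28900000 reads in WT, within the P21 range, and at 24300000 in KO. Depth followed age in the mice with a clear spacing, so depth and age cannot be told apart. Katnal2 itself was at 78.1 to 96.0 in KO mice and 99.3 to 115 in WT mice at P21, with no overlap, and at 95.1 to 125 against 101 to 141 at P70, with overlap. Means were 89.0 ± 8.72 against 107 ± 7.38 at P21 and 105 ± 11.8 against 122 ± 16.4 at P70 (SD, n = 5), with an adjusted p of 1.00 at each age (limma, Benjamini-Hochberg). The gene-level value counts reads from every exon, so it checks the genotype labels only in part. Markers of neurons, glia and endothelium were all above 0 in every group, and the summed neuronal markers ran from 143000 to 160400. Both replicate 5 mice at P70 stood apart from the other P70 mice in many genes, and both replicate 3 mice at P21 did so to a lesser degree, so the main results of the members are given with and without them.

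Set against gene length, the reader Mbd3 was the highest of the members and the Tet genes were the lowest. In P21 WT brain Mbd3 stood at 1009 ± 68.9 normalized counts per kb of exon, against 295 ± 28.9 for Dnmt3a, 257 ± 23.4 for Mbd2, 243 ± 10.7 for Dnmt1 and 208 ± 17.7 for Mbd1 (SD, n = 5). Tet3 followed at 161 ± 16, Tet2 at 75.9 ± 11.3 and Tet1 at 56.0 ± 12.7 per kb. At P70 the WT levels per kb were 1308 ± 236 for Mbd3, 272 ± 19.97 for Dnmt1, 257 ± 25.1 for Mbd2, 215 ± 15.1 for Mbd1, 210 ± 13.5 for Dnmt3a, 157 ± 25.8 for Tet3, 82.7 ± 16.6 for Tet2 and 35.3 ± 10.9 for Tet1. Mbd3 ranked first and Tet3, Tet2 and Tet1 ranked last in this order in all 4 groups, with either all exons or the longest coding transcript as length. The order of the 4 genes between them depended on the length used, and several neighbours overlapped: in P21 WT brain the ranges of Dnmt3a and Mbd2, of Mbd2 and Dnmt1, and of Tet2 and Tet1 overlapped. The ratio of Dnmt3a to Dnmt1 per kb was 1.12 to 1.297 in P21 WT mice (median 1.263) and 1.02 to 1.37 in P21 KO mice (median 1.11). At P70 it was 0.640 to 0.835 in WT (median 0.799) and 0.555 to 0.888 in KO (median 0.819), below every P21 mouse of either genotype. This ratio takes all exons as length, and which gene stood higher at P70 depended on that choice. Per kb of the longest coding transcript, the P70 means of Dnmt3a and Dnmt1 were 361 and 342 in WT and 362 and 341 in KO.

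In the GRCm38 annotation (GENCODE M21), Dnmt1 lies on chromosome 9 from 20907209 to 20959888 on the minus strand and Dnmt3a on chromosome 12 from 3806007 to 3914443 on the plus strand. Tet1 lies on chromosome 10 from 62804570 to 62908996, Tet2 on chromosome 3 from 133463679 to 133545139 and Tet3 on chromosome 6 from 83362373 to 83459084, all on the minus strand. Mbd3 lies on chromosome 10 from 80392539 to 80399550 on the minus strand, and Mbd1 and Mbd2 lie on the plus strand of chromosome 18, from 74267605 to 74282732 and from 70568189 to 70626131. The members differ much in size: the longest coding transcript ran from 1662 bases for Mbd3 to 14369 bases for Tet1, and its GC content from 43.7% for Tet1 to 62.9% for Mbd3. The principal transcript has 39 exons for Dnmt1, 23 for Dnmt3a and 7 for Mbd3.

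**Figure D1:**
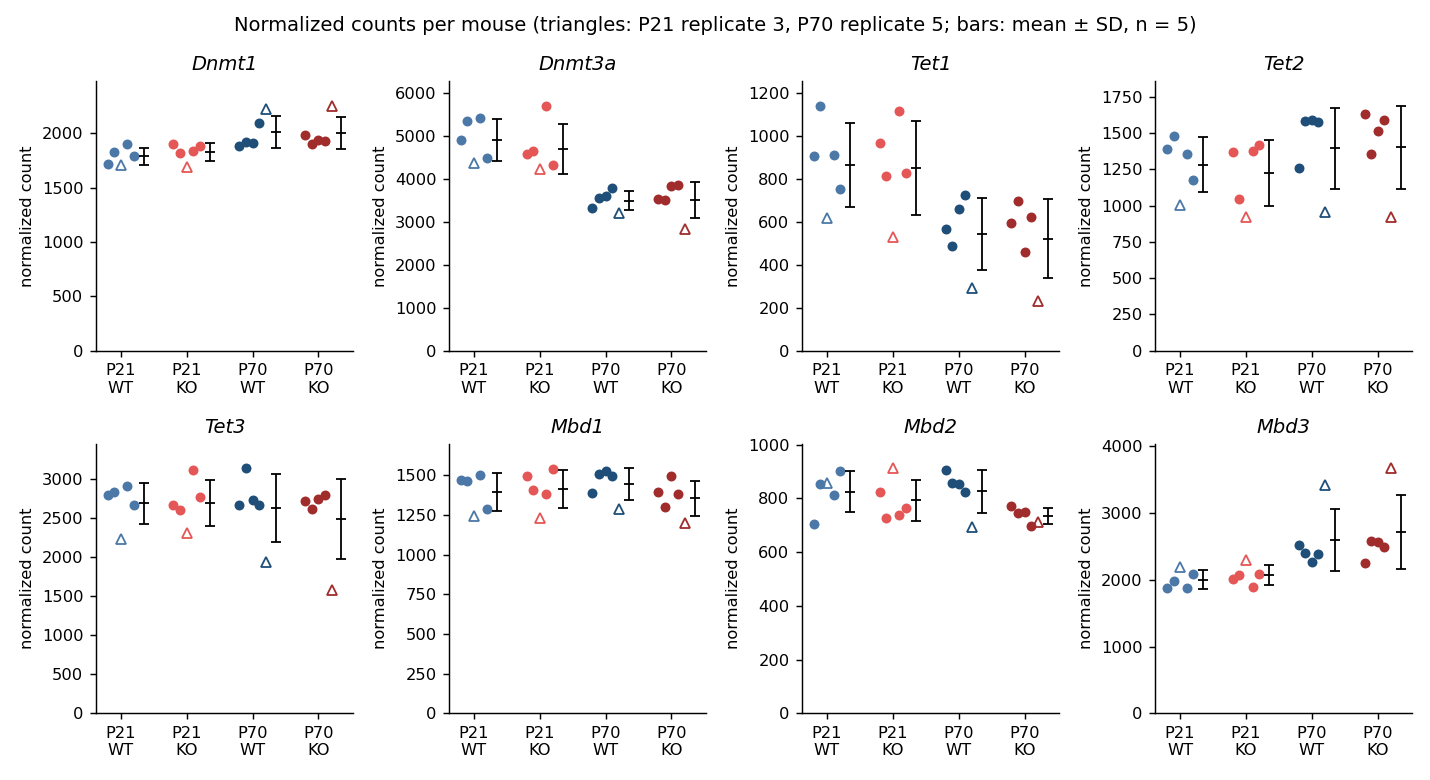
Normalized count of each member (y axis, from 0) in every mouse of the 4 groups, with mean ± SD of 5 mice as bars; open triangles are replicate 3 at P21 and replicate 5 at P70. All P70 mice lie below all P21 mice for Dnmt3a, and the triangles are low for the Tet genes and high for Mbd3.

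Among the writers, Dnmt3a fell from P21 to P70 in both genotypes, and Dnmt1 did not pass the test. Dnmt3a, the de novo methyltransferase, had 4906, 5339, 4359, 5423 and 4496 normalized counts in the 5 P21 WT mice and 3321, 3555, 3595, 3777 and 3215 in the 5 P70 WT mice. In KO mice it had 4573, 4656, 4222, 5706 and 4319 at P21 and 3523, 3505, 3839.9, 3863 and 2822 at P70. The lowest P21 mouse was above the highest P70 mouse in either genotype, with no overlap. Means went from 4904 ± 480 to 3493 ± 225 in WT and from 4695 ± 592 to 3511 ± 420 in KO (SD, n = 5). The log2 fold change was -0.49 (SE 0.08, 1.40-fold lower, adjusted p = 0.00156, limma with Benjamini-Hochberg adjustment) in WT and -0.42 (SE 0.10, 1.34-fold lower, adjusted p = 0.0252) in KO. Without the replicate 3 mice at P21 and the replicate 5 mice at P70, a choice made after seeing the data, it was -0.50 (adjusted p = 0.000435) in WT and -0.38 (adjusted p = 0.00394) in KO. The fall in WT passed the test under all 23 alternatives run. The fall in KO passed under 19 and was lost when replicate 1, 2 or 4 of the P21 KO mice or replicate 2 of the P70 KO mice was left out (adjusted p = 0.0505 to 0.0603). In whole-brain RNA, fewer cells of a type and less RNA per cell cannot be told apart.

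Dnmt1, the maintenance methyltransferase, had 1722, 1825, 1709, 1902 and 1788 normalized counts in P21 WT mice and 1888, 1925, 1909.5, 2094 and 2228 in P70 WT mice. In KO mice it had 1901, 1819.6, 1690.5, 1841 and 1883 at P21 and 1983, 1898, 1938.5, 1928 and 2256 at P70. Replicate 5 was the highest P70 mouse in each genotype, and the ages overlapped. The log2 change with age was 0.17 (SE 0.07, 95% interval 0.02 to 0.31, adjusted p = 0.146, limma with Benjamini-Hochberg adjustment) in WT and 0.13 (SE 0.07, -0.02 to 0.27, adjusted p = 0.277) in KO, and 0.11 and 0.06 without the mice that stood apart. Dnmt1 passed the test under none of the 23 alternatives in either genotype.

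Among the erasers, none of the 3 Tet genes passed the test between ages as fitted. Tet1 had 909, 1142, 619, 910.3 and 751 normalized counts in P21 WT mice and 568, 487, 658, 723 and 292 in P70 WT mice. The KO mice had 967, 812, 528, 1115 and 829 at P21 and 595, 697, 459.7, 624 and 232 at P70. The lowest value of every group came from replicate 3 at P21 and replicate 5 at P70, and the ages overlapped through the P21 replicate 3 mice. Tet1 means were 866 ± 196 and 546 ± 168 in WT and 850.2 ± 218 and 521 ± 183 in KO (SD, n = 5). The log2 change was -0.70 (SE 0.22, adjusted p = 0.0634, limma with Benjamini-Hochberg adjustment) in WT and -0.76 (SE 0.28, adjusted p = 0.122) in KO. Without the mice that stood apart, and so chosen after seeing the data, Tet1 passed the test in both genotypes, at -0.61 (adjusted p = 0.0113) in WT and -0.65 (adjusted p = 0.00352) in KO. It also passed in both with a correction of each mouse for transcript length and GC content, likewise added after seeing the data (-0.72, adjusted p = 0.00282 in WT and -0.70, adjusted p = 0.00950 in KO). With the replicate 5 mice of both ages left out and the replicate 3 mice kept it did not, at -0.54 (adjusted p = 0.0540) in WT and -0.49 (adjusted p = 0.109) in KO. In WT it also passed without P21 replicate 3 (adjusted p = 0.0485), P70 replicate 4 (0.0425) or P70 replicate 5 (0.0496).

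Tet2 ranged from 1004 to 1480 normalized counts in P21 WT mice and from 960 to 1593 in P70 WT mice, and from 921 to 1419 and from 921 to 1630.0 in KO mice. Its lowest value was again replicate 3 at P21 and replicate 5 at P70 in each genotype. The log2 change with age was 0.11 (SE 0.15, adjusted p = 0.693, limma with Benjamini-Hochberg adjustment) in WT and 0.18 (SE 0.17, adjusted p = 0.579) in KO. It passed under 1 of 23 alternatives in KO, with the replicate 5 mice of both ages left out (0.39, adjusted p = 0.0464), and under none in WT. Tet3, the most abundant of the family per kb, ranged from 2228 to 2899.8 in P21 WT mice and from 1936 to 3131 in P70 WT mice, and from 2299.6 to 3111 and from 1579 to 2794 in KO mice. Its log2 change was -0.04 (SE 0.11, 95% interval -0.29 to 0.20) in WT and -0.14 (SE 0.15, -0.46 to 0.19) in KO, and it passed under no alternative. The ratio of Tet1 to Tet3 per kb was 0.300 to 0.437 in P21 WT mice and 0.163 to 0.293 in P70 WT mice, with no overlap. In KO mice it was 0.248 to 0.393 and 0.159 to 0.288, with overlap, and no test was run on these ratios.

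Among the readers, Mbd3 rose with age in WT mice, and Mbd1 and Mbd2 did not pass the test. Mbd3 had 1879, 1982, 2198, 1882 and 2084 normalized counts in P21 WT mice and 2523, 2397, 2267, 2384 and 3424 in P70 WT mice. The KO mice had 2018, 2076, 2298, 1889 and 2081 at P21 and 2258, 2576, 2568, 2489 and 3673 at P70. The ages did not overlap in WT and overlapped in KO, where P21 replicate 3 was above P70 replicate 1, and replicate 5 was the highest mouse of each P70 group by a wide gap. Means went from 2005 ± 137 to 2599 ± 470 in WT and from 2072 ± 148 to 2713 ± 552 in KO (SD, n = 5). The log2 fold change was 0.36 (SE 0.10, 1.28-fold higher, adjusted p = 0.0425, limma with Benjamini-Hochberg adjustment) in WT and 0.37 (SE 0.11, 1.29-fold, adjusted p = 0.0684) in KO. Without the mice that stood apart it was smaller and passed in both genotypes, at 0.29 (adjusted p = 0.00346) in WT and 0.29 (adjusted p = 0.00235) in KO. The call in WT was lost when any of the 5 P21 WT mice, or replicate 1, 2 or 4 of the P70 WT mice, was left out (adjusted p = 0.0502 to 0.109), and also without the intensity trend (0.0823) and with quantile normalization (0.0674). In KO the rise passed under 8 of 23 alternatives, among them without P70 replicate 5 (0.26, adjusted p = 0.0103).

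Mbd1 ranged from 1240.3 to 1500.0 normalized counts in P21 WT mice and from 1288 to 1526 in P70 WT mice, with a log2 change of 0.05 (SE 0.08, 95% interval -0.12 to 0.22). In KO mice it ranged from 1230.2 to 1540.5 at P21 and from 1199 to 1495 at P70, with a change of -0.06 (SE 0.08, -0.24 to 0.12). Mbd2 ranged from 703 to 900.2 in P21 WT mice and from 692 to 905 in P70 WT mice, with means of 825 ± 75.2 and 826 ± 80.6 (SD, n = 5). In KO mice it ranged from 727 to 912 at P21 and from 697 to 772 at P70, with a change of -0.11 (SE 0.08, -0.27 to 0.06). Neither gene passed the test under any of the 23 alternatives in either genotype. The ratio of Mbd3 to Mbd2 per kb, the alternative subunits of NuRD, had a median of 3.76 in P21 WT mice and 4.52 in P70 WT mice, and of 4.14 and 5.60 in KO mice, and it was highest in replicate 5 at P70 (8.005 in WT and 8.36 in KO).

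**Figure D2:**
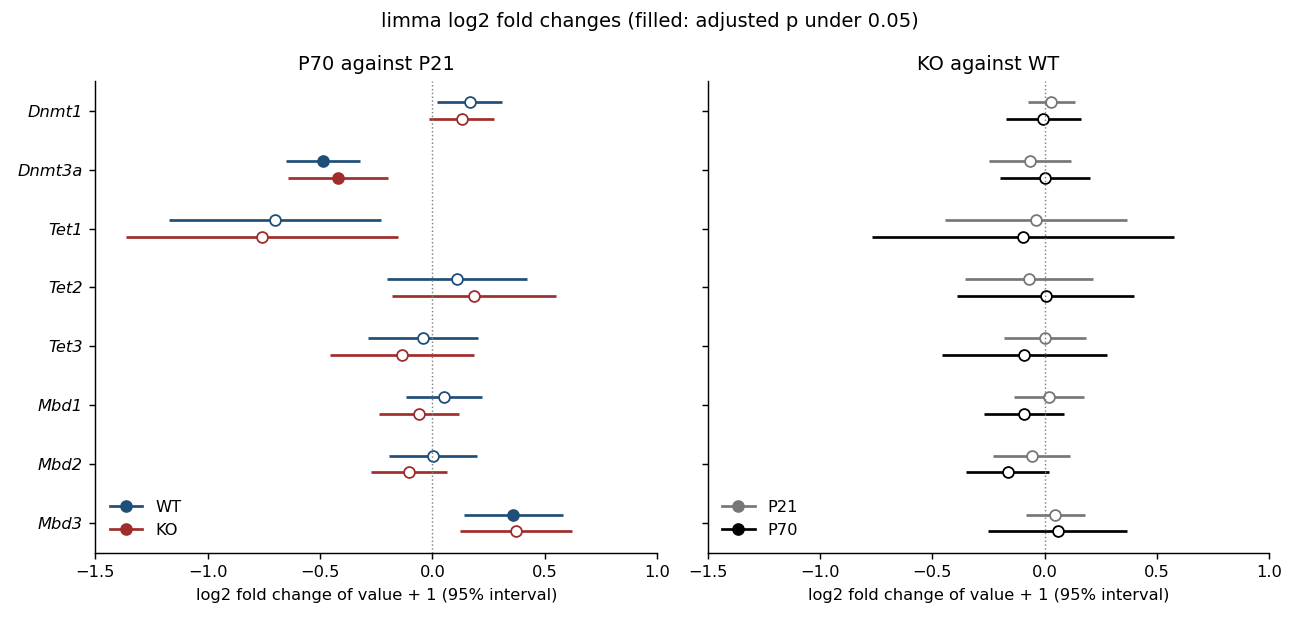
log2 fold change of each member on value + 1 (x axis) with its 95% interval, for P70 against P21 in WT and KO mice (left) and KO against WT at P21 and P70 (right); filled points passed an adjusted p of 0.05 (limma). Filled points are Dnmt3a in both genotypes and Mbd3 in WT, and every interval on the right includes 0.

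Counted over the members, 1 rose and 1 fell with age in WT mice and 6 did not pass. Over all 17630 genes tested in WT, 815 rose (4.62%) and 828 fell (4.7%), which became 949 and 727 when each mouse was scaled to the same median, and groups did not overlap in 10.8%, against 2 of 8 members. In KO mice 0 members rose and 1 fell, beside 667 (3.78%) and 800 (4.53%) of 17641 genes, which became 878 and 701 under that scaling, and 1 of 8 did not overlap between ages, beside 10.9% of all genes. With 8 genes these counts are not read as different from the background. The median log2 change of the members was 0.03 in WT and -0.08 in KO, and that of all genes 0.00 and -0.01. Without the mice that stood apart, 3 members passed in each genotype, with Mbd3 higher and Dnmt3a and Tet1 lower. That setting, added after seeing the data, also called more of all genes, 16.1% in WT and 21.6% in KO in either direction.

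The settings plot shows how far these changes moved with the analysis. Dnmt3a stayed between -0.53 and -0.45 in WT and Mbd3 between 0.25 and 0.41 in WT, with the lowest Mbd3 values under the settings that removed the mice that stood apart or corrected for length and GC content. No member that passed the test changed direction under any alternative.

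**Figure D3:**
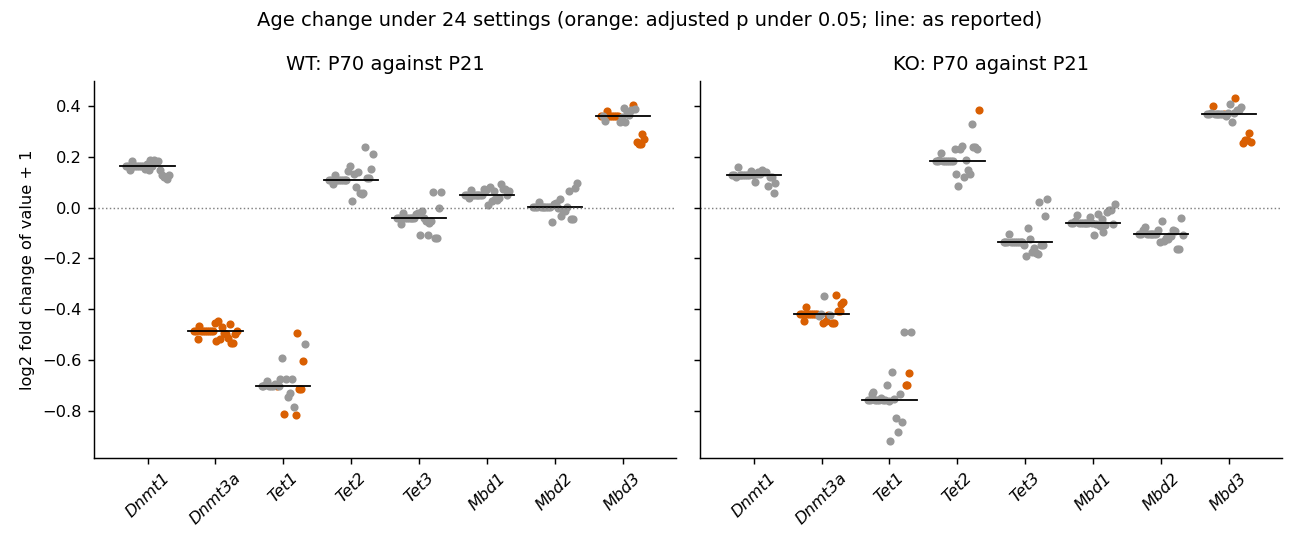
log2 fold change between ages of each member (y axis, on value + 1) under 24 settings in WT and KO mice; each point is a setting, orange points had an adjusted p under 0.05 (limma) and the line marks the reported value. Dnmt3a is orange throughout in WT, Tet1 under 7 alternatives in WT and 3 in KO, and Mbd3 under 13 and 8.

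Between genotypes, no member passed the test at either age. At P21 the log2 differences between KO and WT lay between -0.07 and 0.05, with 95% intervals from -0.07 to 0.13 for Dnmt1, the narrowest, to -0.44 to 0.37 for Tet1, the widest. Dnmt3a was at 4695 ± 592 in KO and 4904 ± 480 in WT mice (SD, n = 5), a log2 difference of -0.07 (SE 0.08, interval -0.25 to 0.12). Mbd3 differed by 0.05 (SE 0.06, -0.08 to 0.18). All 8 members had an adjusted p of 1.00 (limma with Benjamini-Hochberg adjustment) and overlapping groups. Over the 17610 genes tested at P21, 0 passed (0.0%), 429 (2.44%) had an unadjusted p under 0.05, and 0.46% did not overlap between genotypes, against 0 members by each measure.

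At P70 the differences lay between -0.16 and 0.06. The largest was that of Mbd2, with 772, 744, 751, 697 and 710.3 normalized counts in KO mice and 905, 857, 853, 824 and 692 in WT mice. Replicate 5 was the lowest of the WT mice and lay below all 5 KO mice, and the other 4 WT mice lay above all of them. The log2 difference was -0.16 (SE 0.08, interval -0.35 to 0.02, adjusted p = 1.00, limma with Benjamini-Hochberg adjustment). It was -0.21 without both replicate 5 mice and -0.23 (adjusted p = 0.928) without that of WT alone, and the other members lay between -0.09 and 0.05 without both. The intervals ran from -0.17 to 0.16 for Dnmt1 to -0.77 to 0.58 for Tet1. Over the 17613 genes tested at P70, 0 passed (0.0%), 199 (1.13%) had an unadjusted p under 0.05 and 0.193% did not overlap, against 0 members by each measure. The paper, with DESeq2, reports small sets of genes that differed between genotypes at both ages. DESeq2 was not run here, so the absence of calls holds only for limma on the normalized counts. Across the 23 alternatives at each age, no member passed the test between genotypes.

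The age change did not differ detectably by genotype for any member. In the fit over 20 mice the interaction was 0.07 (SE 0.13, 95% interval -0.20 to 0.34) for Dnmt3a, 0.01 (SE 0.16, -0.33 to 0.35) for Mbd3 and -0.06 (SE 0.39, -0.86 to 0.75) for Tet1 on the log2 scale. Mbd1 and Mbd2 had the largest, at -0.11 each (SE 0.11 and 0.12). Adjusted p was 1.00 for all 8 (limma with Benjamini-Hochberg adjustment), and none passed under the 32 alternatives. Over 17637 genes, 0 passed (0.0%) and 296 (1.68%) had an unadjusted p under 0.05, none of them a member. For Mbd3, which passed the age test in WT and missed it in KO, the test of the difference itself did not pass.

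The mice that stood apart did so in most members together. At P70 the replicate 5 mice of both genotypes had 0.439 times the Tet1 level of the other 8 mice (232 and 292 against 459.7 to 723 normalized counts), 0.624 times the Tet2 level and 0.636 times the Tet3 level. Dnmt3a was at 0.833, Mbd1 at 0.867 and Mbd2 at 0.879 times the others. Dnmt1 and Mbd3 went the other way, at 1.15 and 1.46 times, the last with 3424 and 3673 against 2258 to 2576. The 4 members with the longest transcripts, Tet1, Tet3, Dnmt3a and Tet2, were all lower in these mice and the shortest, Mbd3, was higher, whereas Mbd2, the next shortest, was lower. With all genes cut into 5 equal bins, the bin of shortest transcripts was at 1.28 times the other mice in the median and that of the longest at 0.785, while the bin lowest in GC content was at 0.737 and the highest at 1.34.

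At P21 the replicate 3 mice were also low for the Tet genes and Dnmt3a, with Tet1 at 0.621, Tet2 at 0.729, Tet3 at 0.813, Mbd1 at 0.857, Dnmt3a at 0.875 and Dnmt1 at 0.927 times the other 8 mice. Mbd2 and Mbd3 were at 1.12 and 1.13 times, so Dnmt1 and Mbd2 went the opposite way to the P70 replicate 5 mice. Over all genes cut by length into 5 equal bins the median ran from 1.13 (shortest) to 0.898 (longest), and over 5 bins of GC content from 0.979 (lowest) to 1.05 (highest). The labels give no batch for these mice, and the part of RNA quality or library preparation in the offset was not tested.

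**Figure D4:**
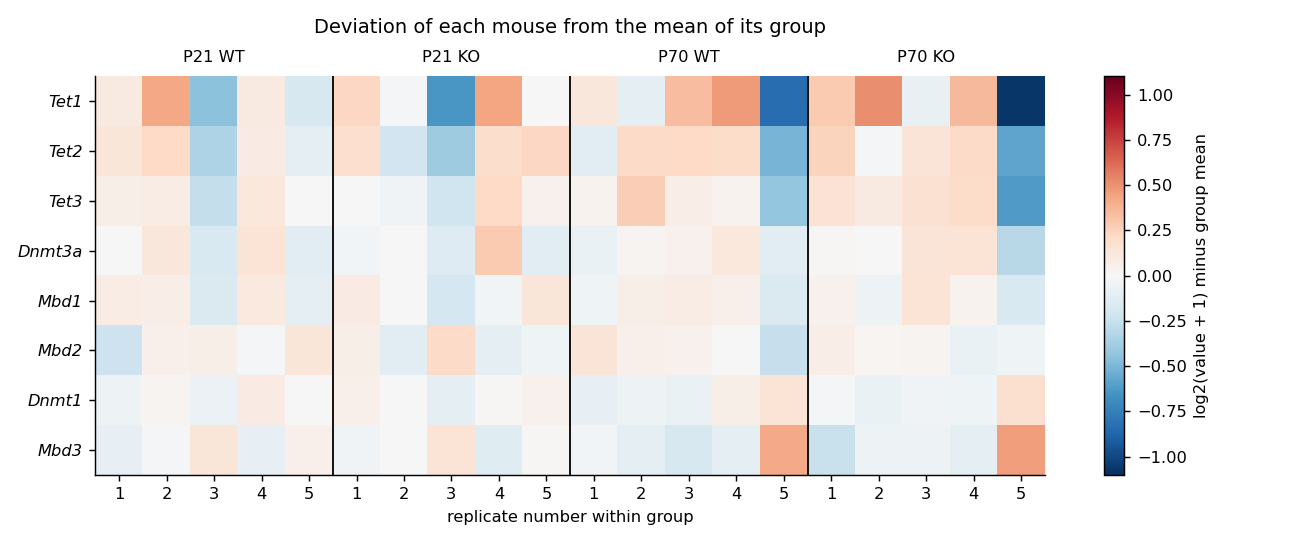
Deviation of each mouse (columns, by group and replicate number) from the mean of its group for each member (rows) on the log2(value + 1) scale; blue is below and red above the group mean. Tet1, Tet2 and Tet3 are darkest blue in replicate 5 at P70 and replicate 3 at P21, where Mbd3 is red.

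Among 43 other genes of the pathway that were tested, 5 rose and 3 fell with age in WT mice, and 5 rose and 1 fell in KO mice. The median log2 change of these 43 was 0.04 in WT and 0.00 in KO. Over all genes tested, 4.62% rose and 4.7% fell in WT, and 3.78% and 4.53% in KO. No test compared the counts of this list or its parts with these shares. Calls of pathway and marker genes are given from the fit with all mice only. Whether those near the threshold hold without the mice that stood apart was not tested. Of 8 writer cofactors, 2 fell in WT: Uhrf1, which brings Dnmt1 to newly replicated DNA, went from 50.9 ± 20.8 to 27.2 ± 3.61 normalized counts (log2 change -0.81, SE 0.24, adjusted p = 0.0481, limma with Benjamini-Hochberg adjustment). Mat2a, which makes the methyl donor S-adenosylmethionine, went from 7221 ± 221 to 6181 ± 477 (-0.23, SE 0.06, adjusted p = 0.0395). In KO mice Mat2a also fell (-0.41, SE 0.09, adjusted p = 0.0108), whereas Uhrf1 had a change of -0.48 that did not pass (SE 0.25, adjusted p = 0.287). Dnmt3b, the other de novo methyltransferase, was at 27.4 ± 3.65 normalized counts in P21 WT mice and 29.5 ± 11.8 in P70 WT mice, a log2 change of 0.03 (SE 0.25).

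Of 15 oxidation and repair genes, 2 rose and 1 fell in WT. Tdg, the glycosylase that removes oxidized methylcytosine, fell from 1672 ± 126 to 1274 ± 173 normalized counts (log2 change -0.40, SE 0.10, adjusted p = 0.0208, limma with Benjamini-Hochberg adjustment), and in KO mice its change of -0.33 did not pass (adjusted p = 0.0604). Gadd45b and Gadd45a, stress-induced proteins linked to active demethylation, rose in both genotypes, by 0.55 and 0.36 in WT (adjusted p = 0.0320 and 0.0465) and 0.59 and 0.55 in KO (adjusted p = 0.0391 and 0.0103). Gadd45b went from 247 ± 26.1 to 368 ± 85.7 in WT mice and from 247 ± 17.0 to 385 ± 122 in KO mice (SD, n = 5). The median of Gadd45b in P70 KO mice was 336 and the highest mouse was at 601. In KO mice Cxxc5, a CXXC zinc finger protein, rose as well (0.27, SE 0.07, adjusted p = 0.0304), with 0.20 and an adjusted p of 0.0891 in WT.

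Of 7 other readers, Zbtb4, a zinc finger protein that binds methylated CpG, rose in both genotypes. It went from 3299.7 ± 415 to 4601 ± 310.2 normalized counts in WT mice (log2 change 0.49, SE 0.09, adjusted p = 0.00450, limma with Benjamini-Hochberg adjustment) and from 3365 ± 246 to 4792 ± 199 in KO mice (0.51, SE 0.07, adjusted p = 0.000535), with no overlap between ages. Of 13 NuRD subunits, Chd5, a neuronal remodelling ATPase, rose in both genotypes, by 0.31 (SE 0.05, adjusted p = 0.00368) in WT and 0.37 (SE 0.07, adjusted p = 0.00466) in KO. Gatad2a, a scaffold subunit, rose in WT by 0.31 (adjusted p = 0.0184), and its change of 0.21 in KO did not pass (adjusted p = 0.220). None of the 43 genes passed the test between genotypes or for the interaction. At an unadjusted p under 0.05 there was 1 at each age, Mta3 at P21 (0.10 higher in KO) and Gadd45a at P70 (0.29 higher in KO), each with an adjusted p of 1.00. Of all genes, 2.44% at P21 and 1.13% at P70 met that unadjusted threshold (limma).

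**Figure D5:**
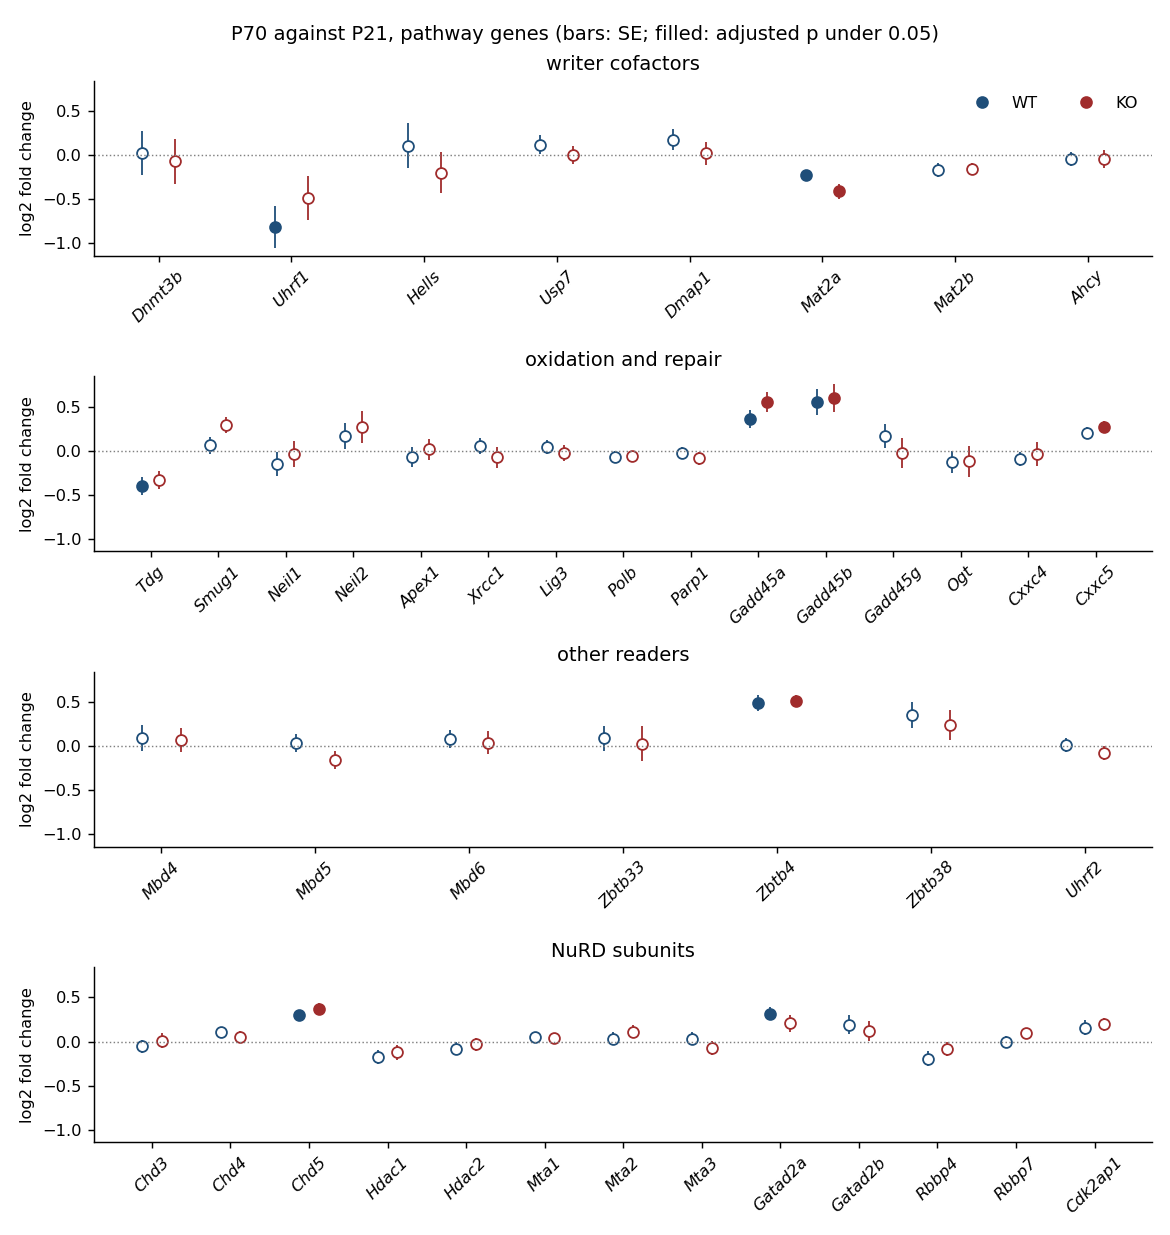
log2 fold change of P70 against P21 (y axis) of the pathway genes in 4 groups, for WT and KO mice, with SE as bars; filled points had an adjusted p under 0.05 (limma). Mat2a is filled and below 0 in both genotypes, and Gadd45a, Gadd45b, Zbtb4 and Chd5 are filled and above 0 in both.

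Markers of several cell types also moved with age, and their part in the changes of the members was not tested. For all genes tested, the shares were 4.62% higher and 4.7% lower with age in WT, and 3.78% and 4.53% in KO. Of 8 oligodendrocyte markers, 6 fell in WT and 7 in KO mice, and their summed level was 240000 to 262300 normalized counts in P21 WT mice and 97110 to 113500 in P70 WT mice. Of 5 oligodendrocyte precursor markers, 4 fell in each genotype, with sums of 13290 to 15310 and 7641 to 9413 in WT. Of 6 immature neuron markers, 3 fell in WT and 2 fell and 1 rose in KO, with sums of 4489 to 5214 and 4133 to 4372 in WT. The sum is led by Neurod2, with WT means of 1935.5 at P21 and 2275 at P70. Sox11 had 455 and 530, whereas Dcx had 1388 and 820. Of 10 cycling-cell markers, 2 fell and 1 rose in WT and 3 fell in KO, with sums of 1472 to 1844 and 1559 to 1639 in WT. That sum is led by Pcna, with WT means of 887 at P21 and 876 at P70. Mki67 had 117 and 63.8 and Top2a 85.7 and 46.9, whereas Mcm2 had 106 and 145. Of 5 red blood cell markers, 5 fell in WT and 4 in KO, with sums of 24460 to 61280 and 6982 to 9945 in WT.

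Neuronal markers were mixed, with 1 of 7 higher and 2 lower with age in WT and 1 each in KO, and sums of 146000 to 151600 and 148400 to 158600 in WT. None of the 6 astrocyte, 5 microglia and 4 endothelium markers passed in either genotype, with 1, 1 and 2 of them at an unadjusted p under 0.05 in WT and 0, 0 and 1 in KO (limma). Of all genes, 4315 of 17630 in WT and 4008 of 17641 in KO met that unadjusted threshold. In WT the marker sums were 53500.0 to 59940.0 and 51240.0 to 61120.0 for astrocytes, 4307 to 4901 and 3963 to 4906 for microglia, and 3118 to 3582 and 2524 to 3652 for endothelium. No marker was at 0 in any group.

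Across the 20 mice, each member was matched with the genes of most similar pattern by Pearson's r of log2(value + 1), as a description. The points share both ages, their libraries and the mice that stood apart. Dnmt3a was most like Nav3 (r = 0.960), Adamts18 (0.959) and Ifi203 (0.958), and Dnmt1 most like Rab11fip3 (0.928), C2cd4c (0.924) and Ptpn23 (0.923). Tet1 was most like Dock10 (0.946), Tmem178b (0.946) and Ptprd (0.940), Tet2 most like Kcnq1ot1 (0.963, an antisense gene whose reads cannot be told from those of its partner without strand), Pnisr (0.944) and Ryr2 (0.943), and Tet3 most like Klf7 (0.974), Nipbl (0.972) and Rictor (0.966). The genes matched to Dnmt3a had longest coding transcripts of 3754 to 9962 bases. Mbd3 was most like Nudc (0.989), Ppp1r37 (0.981) and Vegfb (0.980), with transcripts of 1281 to 3816 bases. Mbd1 was most like Zmym3 (0.888), Lyst (0.881) and Fras1 (0.870), and Mbd2, with the lowest r to its top genes among the members, most like Mxi1 (0.748), Esf1 (0.744) and Pwp1 (0.736).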

How the data were processed

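Whole-brain RNA of 20 male mice in 4 groups of 5 was measured after TruSeq library preparation, with groups taken from the sample labels. The authors quantified reads with Salmon 1.1.0 on GRCm38, imported them with tximport and normalized them with DESeq2 (1.26.0 with R 3.6.2 in the submitters' processing notes), and deposited the result as signal values. These normalized counts are not whole reads, so no count test was applied. Of 19463 genes, 19447 had a symbol in GENCODE M21. Genes with a mean of at least 10 were tested on log2(value + 1) with limma 3.58.1 in R 4.3.3 (lmFit, eBayes with trend, two-sided), with Benjamini-Hochberg adjustment over all genes tested and a threshold of 0.05, and fold changes understate those of low genes. Scripts were tested on simulated data. The members, gene lists and tests were chosen with earlier results of these data known. All members were named in each comparison, pathway genes were the largest WT age changes past the threshold in each group of the list (up to 2 in each direction), and like genes the top 3 by correlation. Dnmt3b, Cxxc5, Mta3, Lenep, Spats2l and Gm28438 were named after their values were seen. Alternatives were other filters, pseudocounts, scalings, fits and mice left out.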

Additional observations from a re-analysis of the deposited data

Results flagged for a closer look

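Among 36 sets of 5 mice (each member and Katnal2 in each group), 4 had a mouse that stood apart from the other 4 by Dixon's criterion, which chance meets in about 1 of 20 such sets. All 4 were replicate 5 at P70. In KO mice, Dnmt1 was at 2256 normalized counts in this mouse and at 1898 to 1983 in the others, Tet3 at 1579 against 2609.9 to 2794, and Mbd3 at 3673 against 2258 to 2576. In WT mice, Mbd3 was at 3424 against 2267 to 2523. The same 2 mice carried the length and GC offsets over all genes given in the report, and whether RNA quality or library preparation set them apart was not tested.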

How the results depend on the processing

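In WT mice 1643 genes and 2 members passed the age test and in KO mice 1467 genes and 1 member. With the replicate 5 mice of both ages left out these became 2646 genes in WT and 3417 genes and 3 members in KO. Alternatives added after seeing the data gave 3126 genes in WT and 3176 genes and 3 members in KO with the length and GC correction, 2651 in WT and 2653 and 3 members in KO with that correction and the replicate block, and 2850 in WT and 3811 and 3 members in KO with replicate 3 at P21 and replicate 5 at P70 left out. Leaving out each mouse in turn gave 912 to 3000 genes and 1 to 3 members in WT (912 without P21 replicate 4, 3000 without P70 replicate 5) and 896 to 3759 genes and 0 to 2 members in KO (943, 957 and 896 without P21 replicates 1, 2 and 4, 3759 without P70 replicate 5). Without the intensity trend and with quantile normalization 1 member passed in WT, and with median scaling and with all 20 mice in 1 fit 2 passed in KO. Between genotypes the count went from 0 genes to 0 to 1 without each mouse at P21 (Lenep without KO replicate 4, Spats2l without WT replicate 3), to 1 (Spats2l) at P21 with the length and GC correction or with replicates 3 left out, and to 1 (Gm28438) at P70 with the replicate 5 mice left out under either setting. The causes were not tested.

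With the replicate block 913 genes passed in KO and 1265 in WT, where Tet1 then passed (adjusted p = 0.0489, limma). Between genotypes 0 genes passed with the block. An unadjusted p under 0.05 was met by 732 genes at P21 and 610 at P70 with it, against 429 and 199 without it (limma). The replicate numbers were not taken as pairs, since not every same-numbered pair had a correlation over 0.1. What same-numbered mice shared therefore stayed in the spread of the main fits. Their deviations correlated at 0.00511 to 0.256 between genotypes at P21, 0.0622 to 0.709 at P70, -0.105 to 0.155 between ages in WT and -0.122 to 0.153 in KO, and 5, 7, 4 and 2 of 10 mice correlated best with their own number. No value that passed its test reversed. The lowest value of any member was 232 normalized counts. DESeq2 was not run, because the table does not hold counts.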
